A study of Mus musculus with 16 samples.

Results

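Mitochondrial ribosomal protein genes were compared between retinal microglia of mice with oxygen-induced retinopathy (OIR) and without it (nonOIR). Members were the genes whose symbol begins with Mrpl or Mrps and a digit, with pseudogene symbols left out. Such symbols belonged to 78 of 54532 genes measured, and 77 reached at least 1 CPM (counts per mega-count, the raw count over the library's total) in at least 8 libraries. By their symbols 48 of the 77 belong to the large subunit and 29 to the small subunit. Members were chosen by name and by level over all libraries, with no use of the group labels.

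RNA was taken from tdTomato-positive cells that were low in CD45, positive for CD11b and negative for Ly6C and Ly6G, sorted from pups at postnatal day 17. Both groups were Cx3cr1CreERT2:Rosa26-tdTomato reporter mice, in which Cre is driven from Cx3cr1, a gene of microglia and other mononuclear phagocytes. Both groups received tamoxifen under the skin (5 µl at 21 mg/ml) at postnatal day 1, so the reporter marks cells that expressed Cx3cr1 then and their descendants. The OIR model places newborn mice in high oxygen for some days; back in room air their retina lacks oxygen and forms abnormal vessels. The nonOIR group is the healthy retina of the same age. There were 8 libraries in each group, and the labels do not say whether each came from 1 animal or from pooled animals. The p-values therefore measure the spread between these libraries, which may be partly technical.

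Mitochondria keep their own ribosome. Its RNA is made from mitochondrial DNA, while all of its proteins are encoded in the nucleus, made in the cytosol and imported. The ribosome translates only the few mitochondrial messages, which encode core subunits of the respiratory chain and ATP synthase. Some of its proteins descend from bacterial ribosomal proteins and others are found only in mitochondria. Genes of mitochondrial ribosomal proteins are often controlled from promoters with sites for the ETS factor GABP (also called NRF2 in the older literature on respiratory genes), NRF1 and YY1.

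Promoter sequences are shown for 4 members that were higher in OIR and hold a GABP-type ETS core, for Mrpl28, which was higher and does not hold it, and for Mrps31, the 1 member that was lower, which does not hold it either. They are RefSeq sequences on GRCm38.p6, 250 bases before to 50 bases after the annotated start, written 5′ to 3′ in the direction of the gene. Capitals mark the core CCGGAAG, searched on both strands.
Mrpl33 (chr5:31613701-31614000, plus strand): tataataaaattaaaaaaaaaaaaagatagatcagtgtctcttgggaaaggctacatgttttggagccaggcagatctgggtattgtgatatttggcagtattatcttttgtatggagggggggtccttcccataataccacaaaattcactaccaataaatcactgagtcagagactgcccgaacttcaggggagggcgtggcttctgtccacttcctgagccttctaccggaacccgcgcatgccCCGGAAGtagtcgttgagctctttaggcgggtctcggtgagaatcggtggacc
Mrpl27 (chr11:94653541-94653840, plus strand): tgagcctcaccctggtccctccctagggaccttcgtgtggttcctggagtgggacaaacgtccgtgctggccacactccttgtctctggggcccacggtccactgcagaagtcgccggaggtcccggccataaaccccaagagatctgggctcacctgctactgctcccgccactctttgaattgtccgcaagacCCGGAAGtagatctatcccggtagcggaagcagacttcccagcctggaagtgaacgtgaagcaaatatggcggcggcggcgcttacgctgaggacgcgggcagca
Mrpl51 (chr6:125191950-125192249, plus strand): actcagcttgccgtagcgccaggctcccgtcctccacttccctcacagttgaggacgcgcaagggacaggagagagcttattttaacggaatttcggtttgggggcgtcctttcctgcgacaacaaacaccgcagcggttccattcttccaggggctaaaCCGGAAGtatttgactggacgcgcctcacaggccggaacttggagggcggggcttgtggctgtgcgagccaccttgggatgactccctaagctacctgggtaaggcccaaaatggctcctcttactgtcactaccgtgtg
Mrps12 (chr7:28741772-28742071, minus strand): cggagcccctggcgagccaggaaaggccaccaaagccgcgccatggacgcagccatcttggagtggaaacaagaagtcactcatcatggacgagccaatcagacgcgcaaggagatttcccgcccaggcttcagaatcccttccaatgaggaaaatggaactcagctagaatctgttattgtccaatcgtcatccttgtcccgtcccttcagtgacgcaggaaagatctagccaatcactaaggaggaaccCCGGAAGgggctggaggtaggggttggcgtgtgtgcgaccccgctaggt
Mrpl28 (chr17:26123253-26123552, plus strand): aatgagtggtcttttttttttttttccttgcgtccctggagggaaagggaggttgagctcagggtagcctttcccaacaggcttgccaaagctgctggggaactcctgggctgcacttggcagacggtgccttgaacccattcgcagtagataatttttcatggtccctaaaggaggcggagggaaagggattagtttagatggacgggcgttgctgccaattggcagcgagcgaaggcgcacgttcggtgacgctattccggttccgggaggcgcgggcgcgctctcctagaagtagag
Mrps31 (chr8:22411090-22411389, plus strand): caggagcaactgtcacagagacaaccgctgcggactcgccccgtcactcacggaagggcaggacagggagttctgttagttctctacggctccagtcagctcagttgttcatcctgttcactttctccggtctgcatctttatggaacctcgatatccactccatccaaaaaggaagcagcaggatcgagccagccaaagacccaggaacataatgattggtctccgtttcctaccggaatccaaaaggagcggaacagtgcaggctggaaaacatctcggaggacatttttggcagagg
The core lay at the start of Mrps12 itself, 3 bases before the start of Mrpl33, 55 before that of Mrpl27 and 90 before that of Mrpl51. No match was found in the windows of Mrpl28 and Mrps31.

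Library totals lay between 13.6 M and 30.0 M gene counts (M, mega). A lane code in the labels split each group alike, with 5 libraries under code 1 and 3 under code 2. The microglial genes P2ry12 and Tmem119 were among the markers present in every library. Of the markers of other blood cells, Ly6c2 (monocytes), Ly6g (granulocytes) and Cd3e (T cells) were at 0 counts in all 16 libraries, S100a8 and Cd79a were at 0 in 10 each and S100a9 in 13, while Ccr2 was present in all and Plac8 at 0 in 1. Summed CPM of the 3 monocyte genes ran from 3.58 to 15.9 in OIR and from 4.43 to 7.98 in nonOIR. That of the 3 border macrophage genes Mrc1, Cd163 and Lyve1 ran from 2.31 to 98.3 and from 5.47 to 94.2, with lane code 2 means of 97.3 in OIR and 23.0 in nonOIR. Per library, summed CPM of 6 genes of dividing cells ran from 67.4 to 305 in OIR and from 21.2 to 48.8 in nonOIR, without overlap, and the log2 fold changes of the 6 ran from 1.66 (Cdk1) to 3.70 (Plk1). Summed CPM of 4 erythroid genes ran from 1.53 to 258 in OIR and from 0 to 28.6 in nonOIR, and that of 6 rod genes from 34.4 to 355 and from 55.0 to 436. The part of these differences in the results below was not tested. In RNA of sorted populations, fewer cells of a kind and less RNA per cell cannot be told apart. On principal components of the 2000 most variable genes, OIR replicate 1 stood alone on the third (9.44% of variance) and nonOIR replicate 8 on the fourth (6.59%), and counts without both are given below.

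Most of the 77 members were measured well above the counting floor, and Mrps36, Mrpl23 and Mrps34 lay nearest to it. Mean raw counts per library ran from 47.7 for Mrps36 to 1832 for Mrpl17. On the scale of CPM per kilobase of transcript, the highest large-subunit levels over all 16 libraries were those of Mrpl52 (113.9), Mrpl20 (98.8), Mrpl42 (83.4), Mrpl33 (61.9) and Mrpl36 (59.5), against a median of 26.4 over the 48 genes. The highest small-subunit levels were those of Mrps21 (68.8), Mrps15 (61.95), Mrps17 (55.1), Mrps18a (46.9) and Mrps18c (41.7), against a median of 15.8 over the 29. Annotated transcripts of some members are far longer than their coding part, such as Mrps25 with a median of 6073 bases for 171 residues. This order therefore depends on the transcript models. The only gene left out by level was Mrpl53, with 0 to 3 counts per library and 19 counts in all (10 in OIR, 9 in nonOIR). Its annotated exons overlap Gm42688 on the same strand and Ccdc142os on the other, so its low count need not be its level. Just inside the limit lay Mrps36, with 17 to 90 counts per library, then Mrpl23 and Mrps34.

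Summed over the 48 large-subunit genes, libraries averaged 1706 ± 208 CPM under OIR and 1529 ± 153 CPM without it (SD, n = 8 each, after TMM scaling between libraries), a ratio of 1.12. OIR libraries ran from 1451 to 2029 and nonOIR libraries from 1370 to 1772, so the groups overlapped widely. The 29 small-subunit genes summed to 786 ± 89.6 CPM in OIR and 721 ± 76.3 CPM in nonOIR (SD, n = 8 each), a ratio of 1.09, with ranges of 699.7 to 939 and 647 to 838. In each group 2 of the 3 libraries under lane code 2 held the highest sums and the third lay within the range of lane code 1. Within code 1 the large-subunit ratio of OIR to nonOIR was 1.10 and within code 2 it was 1.14. The ratio of large-subunit to small-subunit CPM averaged 2.17 ± 0.0535 for OIR and 2.12 ± 0.0349 for nonOIR (SD, n = 8 each), with overlapping ranges of 2.07 to 2.23 and 2.09 to 2.20.

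**Figure D1:**
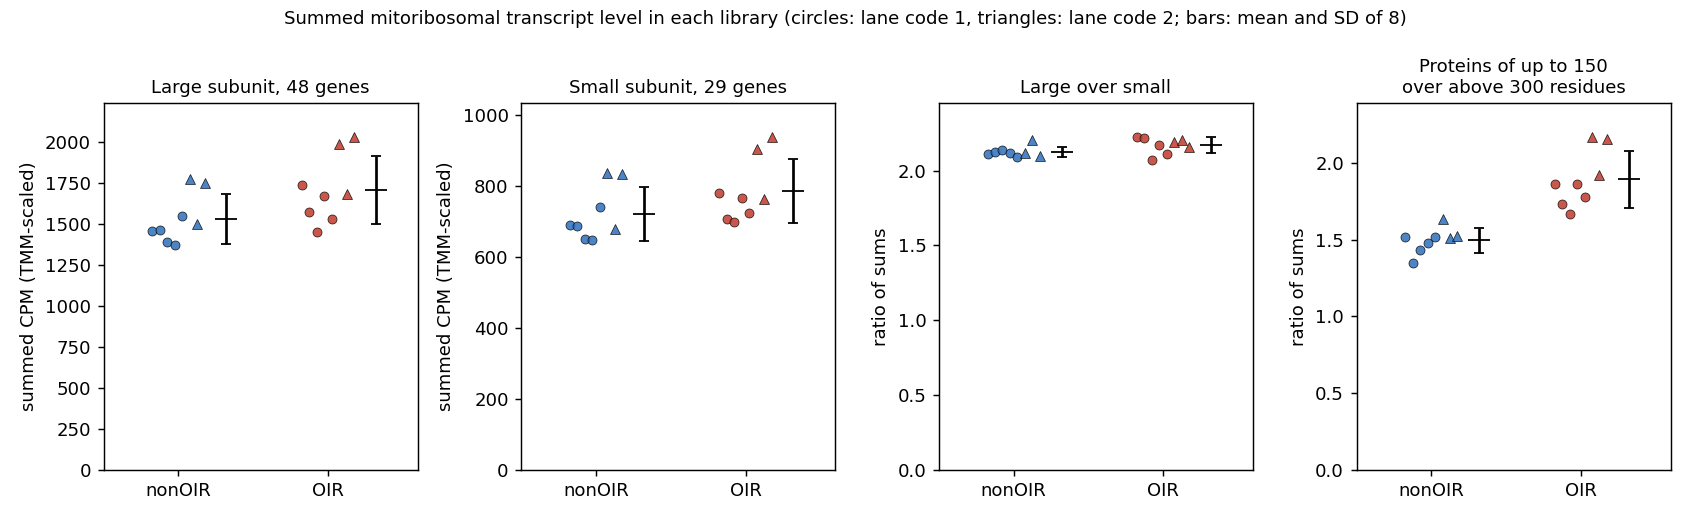
Summed CPM of large-subunit and small-subunit genes, the ratio of the sums, and the ratio of genes for proteins of up to 150 residues to genes for proteins above 300 residues, 1 point per library (circles, lane code 1; triangles, lane code 2), with the mean and SD of 8 libraries. The sums overlap between groups. The ratio of short to long runs from 1.67 to 2.17 in OIR and from 1.35 to 1.64 in nonOIR. Its length classes were chosen after the fold changes were seen.

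Gene by gene, 6 of 48 large-subunit genes rose in OIR and 0 fell (edgeR quasi-likelihood test, Benjamini-Hochberg adjusted p under 0.05 over 12496 genes). Over all genes tested 6.39% rose and 4.56% fell by this rule, against 12.5% and 0% of the large subunit. At an unadjusted p under 0.05 the large-subunit counts were 15 higher and 2 lower, and DESeq2 and limma-voom also called 0 lower. Of the 29 small-subunit genes 1 rose and 1 fell (3.45% each), with 6 and 1 at an unadjusted p under 0.05. The median log2 fold change was 0.16 over the large subunit and 0.13 over the small subunit, beside -0.031 over all genes tested. Values above 0 were found for 36 of 48 and 21 of 29 genes, beside 46.5% of all genes. With library totals in place of TMM scaling, 1020 genes rose and 364 fell over the whole table, where TMM gave 798 and 570; the member counts were then 6 higher and 0 lower in the large subunit and 1 higher and 0 lower in the small. These genes were chosen as members with results of these libraries known, so the counts describe them and are not independent support.

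Mrpl54, a large-subunit protein found only in mitochondria, had the greatest rise among the members. It stood at 25.6, 33.4 and 49.9 CPM (lowest, median and highest library) in OIR and at 15.9, 18.3 and 23.7 CPM in nonOIR. All 8 OIR libraries lay above all 8 nonOIR libraries, which 1.34% of all genes tested also did, and no other member did so in either direction (0.688% of all genes lay wholly below). The log2 fold change was 0.83 ± 0.15 (SE) with an edgeR adjusted p of 0.00165, a fold of 1.77. The rise passed the test under every alternative that was run, with 0.72 within lane code 1 (edgeR adjusted p = 0.0183) and 1.02 within lane code 2 (edgeR adjusted p = 0.00911). The gene lies at chr10:81264713-81266934 on the minus strand, next to Apba3, which starts 26 bases away on the other strand and had a difference of 0.57 ± 0.20 on the log2 scale (SE, edgeR adjusted p = 0.0738).

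Mrpl33 and Mrpl28, both of bacterial descent, followed. Mrpl33, among the shortest ribosomal proteins at 65 residues, stood at 26.6, 33.5 and 49.1 CPM (lowest, median, highest) in OIR and 17.3, 23.7 and 29.2 CPM in nonOIR. Of the 8 OIR libraries 6 lay above every nonOIR library, and the log2 fold change was 0.58 ± 0.14 (SE, edgeR adjusted p = 0.0142). Mrpl28 stood at 33.1, 54.02 and 93.1 CPM in OIR and 30.1, 38.6 and 48.4 CPM in nonOIR, again with 6 OIR libraries above every nonOIR library. Its log2 fold change was 0.64 ± 0.17 (SE, edgeR adjusted p = 0.0220), and the 3 OIR libraries under lane code 2 were its 3 highest. Within lane code 1 both missed the threshold, with log2 fold changes of 0.44 for Mrpl33 (edgeR adjusted p = 0.164) and 0.39 for Mrpl28 (edgeR adjusted p = 0.192). Within lane code 2 both passed it, at 0.82 (edgeR adjusted p = 0.0179) and 1.00 (edgeR adjusted p = 0.00658). Neither lost its call when any 1 library was left out. Mrpl33 lies at chr5:31596935-31664384 on the plus strand, with exons shared with Gm43809 on the same strand, and Mrpl28 at chr17:26123500-26126613 on the plus strand.

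The other 3 large-subunit genes that rose did so by smaller amounts. Mrpl27, whose bacterial relative reaches toward the peptidyl transferase centre, stood at 18.7, 22.97 and 30.5 CPM (lowest, median, highest) in OIR and 12.9, 17.4 and 19.6 CPM in nonOIR. Its log2 fold change was 0.46 ± 0.13 (SE, edgeR adjusted p = 0.0317), and 6 OIR libraries lay above every nonOIR library. Mrpl34, another short protein of bacterial descent, stood at 22.5, 31.2 and 36.7 CPM in OIR and 18.2, 22.9 and 26.1 CPM in nonOIR, which is 0.40 ± 0.12 higher on the log2 scale (SE, edgeR adjusted p = 0.0398). Its log2 fold change was 0.81 within the second lane code (edgeR adjusted p = 0.0135) and 0.19 within the first (edgeR adjusted p = 0.561), and the test of the difference between lane codes gave an edgeR adjusted p of 0.212. Mrpl51, found only in mitochondria, stood at 30.9, 40.4 and 52.3 CPM in OIR and 25.6, 31.8 and 37.7 CPM in nonOIR, which is 0.38 ± 0.12 higher (log2 with its SE, edgeR adjusted p = 0.0492). These 3 calls were near the threshold. Over the 16 fits that each left out 1 library the edgeR adjusted p ran up to 0.0636 for Mrpl27, 0.0783 for Mrpl34 and 0.0962 for Mrpl51. Mrpl27 lost its call without OIR replicates 6 or 8 or nonOIR replicates 1, 2 or 7, and Mrpl34 without OIR replicates 1, 4, 6, 7 or 8 or nonOIR replicates 2, 6, 7 or 8. Mrpl51 kept its call only without OIR replicates 2 or 3 or nonOIR replicate 8. The count of large-subunit genes that rose was 3 without OIR replicate 6, OIR replicate 8, nonOIR replicate 2 or nonOIR replicate 7. The 3 genes lie at chr11:94653767-94660089, chr8:71464959-71465747 and chr6:125191801-125196269, all on the plus strand.

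In the small subunit Mrps12 rose and Mrps31 fell. Mrps12, a conserved protein of the decoding centre, stood at 19.4, 22.1 and 23.99 CPM (lowest, median, highest) in OIR and 13.5, 17.1 and 20.2 CPM in nonOIR. On the log2 scale the difference was 0.40 ± 0.11 (SE, edgeR adjusted p = 0.0289), with 5 OIR libraries above every nonOIR library, and its size was close in the 2 lane codes (0.41 and 0.43, edgeR adjusted p = 0.136 and 0.222). The call was lost without OIR replicate 7, nonOIR replicate 3 or nonOIR replicate 7. Mrps31, found only in mitochondria, stood at 16.3, 16.9 and 19.5 CPM in OIR and 18.5, 22.1 and 28.4 CPM in nonOIR. All 8 OIR libraries lay below the nonOIR median but the groups overlapped, and the log2 fold change was -0.38 ± 0.12 (SE, edgeR adjusted p = 0.0458). This call held only without nonOIR replicates 1, 3 or 4 among the 16 fits with 1 library left out, where the edgeR adjusted p ran from 0.0354 to 0.0960. Mrps12 lies at chr7:28739641-28741820 on the minus strand and Mrps31 at chr8:22411361-22429665 on the plus strand.

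**Figure D2:**
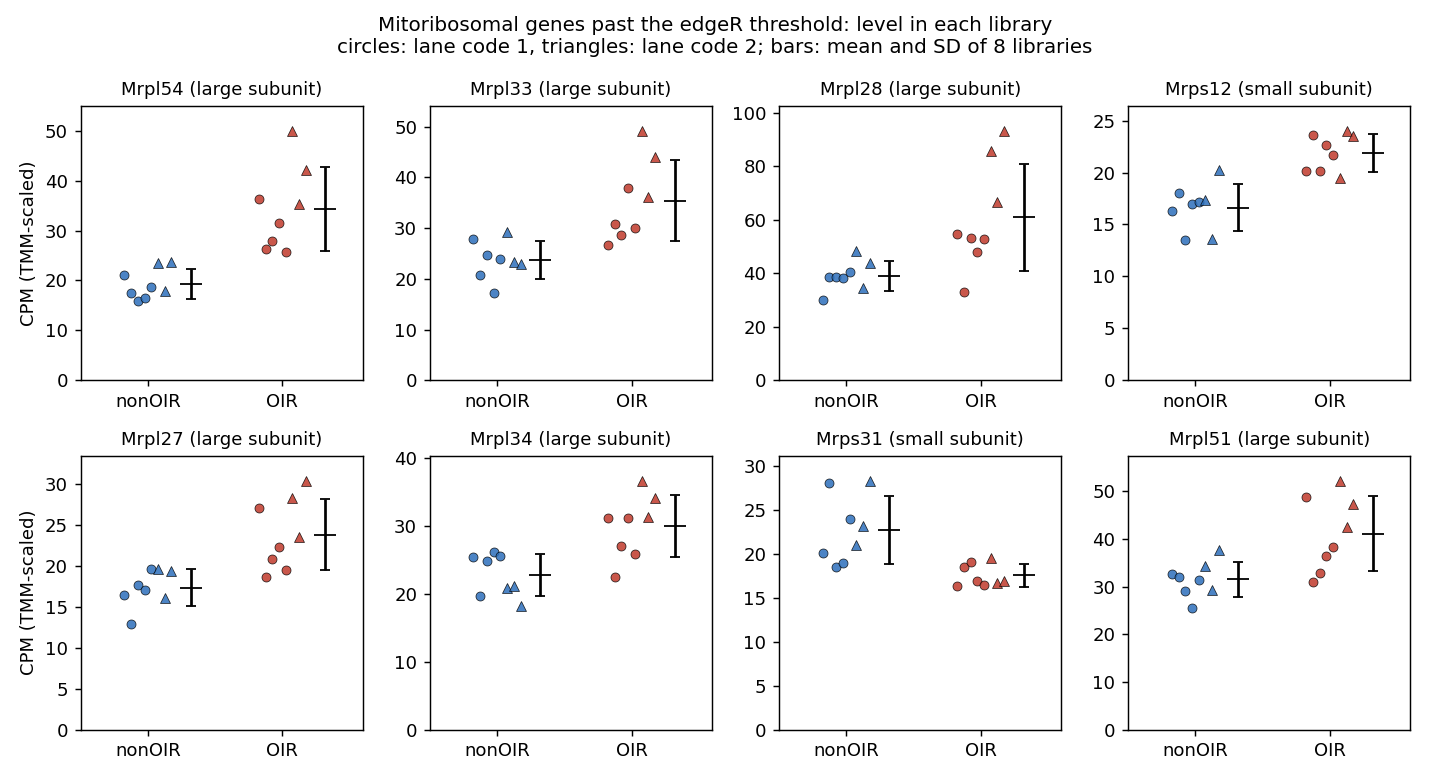
CPM after TMM scaling of the 8 members past the threshold, 1 point per library (circles, lane code 1; triangles, lane code 2), with the mean and SD of 8 libraries in each group. All Mrpl54 values in OIR lie above all nonOIR values, the other 6 members that rose overlap between groups, and Mrps31 is the member that fell.

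With the lane code as a covariate, 9 large-subunit genes (18.8%) and 5 small-subunit genes (17.2%) rose and 1 small-subunit gene (3.45%) fell. In that fit 9.68% of all genes rose and 7.59% fell. The members added were Mrpl42, Mrpl20 and Mrpl36 in the large subunit and Mrps16, Mrps21, Mrps24 and Mrps28 in the small. Without the covariate their log2 fold changes lay between 0.34 (Mrpl20) and 0.43 (Mrpl42) and none passed the threshold (edgeR adjusted p from 0.0779 for Mrps16 to 0.146 for Mrps28). Mrps16 stood at 22.3, 24.8 and 32.6 CPM (lowest, median, highest) in OIR and 15.5, 19.3 and 27.2 CPM in nonOIR, and Mrpl42 at 47.1, 56.1 and 90.6 CPM in OIR and 37.3, 44.98 and 62.6 CPM in nonOIR. In both genes all 8 OIR libraries lay above the nonOIR median. Without OIR replicate 1 and nonOIR replicate 8, 5 large-subunit genes rose and 1, Mrpl23, fell, and 3 small-subunit genes rose and 0 fell, beside 6.84% and 4.6% of all genes; Mrpl34, Mrpl51 and Mrps31 did not pass there. The group difference did not pass the test of a difference between lane codes in any member (edgeR, 0 of 77; 5 at an unadjusted p under 0.05; 0.496% of all genes passed). limma-voom also found 0 members, with 5 at an unadjusted p under 0.05. By the authors' deposited table, members that rose numbered 8 and 1 fell, those above plus Mrps16 (authors' adjusted p = 0.0261), beside 8.16% and 6.25% of its 13718 genes with an adjusted p.

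The 42 large-subunit genes that did not pass ran from a log2 fold change of -0.80 (Mrpl23) to 0.43 (Mrpl42), with 30 of 42 above 0 and 26 of 42 within 0.2 of 0. The lowest value belonged to Mrpl23, a conserved protein near the exit tunnel, at 1.80, 2.93 and 5.72 CPM (lowest, median, highest) in OIR and 2.67, 4.92 and 9.73 CPM in nonOIR. Its log2 fold change was -0.80 ± 0.31 (SE, edgeR adjusted p = 0.112), and without OIR replicate 1, its highest OIR library, it was -0.96 (edgeR adjusted p = 0.0496). The pseudogene Mrpl23-ps1 is in the table at 18.7% of the parent's mean CPM, so reads of this gene may be split or dropped. Mrpl50, found only in mitochondria, stood at 31.5, 34.1 and 49.5 CPM in OIR and 34.5, 45.9 and 57.6 CPM in nonOIR, with a log2 fold change, OIR over nonOIR, of -0.31 ± 0.13 (SE; edgeR adjusted p = 0.118). Without OIR replicate 2, its highest OIR library, the value was -0.39 (edgeR adjusted p = 0.0364). Mrpl9 (-0.33 ± 0.18), Mrpl44 (-0.18 ± 0.14) and Mrpl1 (-0.15 ± 0.17, log2 fold change ± SE) were the next lowest and did not pass.

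The 27 small-subunit genes that did not pass ran from -0.22 (Mrps35) to 0.37 (Mrps21), with 20 of 27 above 0 and 14 of 27 within 0.2 of 0. After Mrps31, the lowest log2 fold changes were those of Mrps35 (-0.22 ± 0.14), Mrps30 (-0.19 ± 0.10), Mrps9 (-0.11 ± 0.14) and Mrps2 (-0.087 ± 0.100, all ± SE). Mrps30 and Mrps18a sit in the large subunit of the assembled mammalian mitoribosome despite their symbols; counted there, 6 of 50 large-subunit and 1 of 26 small-subunit genes rose. Mrps36 is left out of the count by structure, since its product belongs to the 2-oxoglutarate dehydrogenase complex. The highest small-subunit levels per kilobase gave log2 fold changes of 0.21 ± 0.11 (Mrps15), 0.13 ± 0.13 (Mrps17), 0.17 ± 0.15 (Mrps18a) and 0.22 ± 0.15 (Mrps18c, all ± SE), none of which passed. Mrpl52, the highest large-subunit gene per kilobase, stood at 54.7 ± 10.7 CPM in OIR and 45.7 ± 8.12 CPM in nonOIR (SD, n = 8 each; edgeR adjusted p = 0.231).

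**Figure D3:**
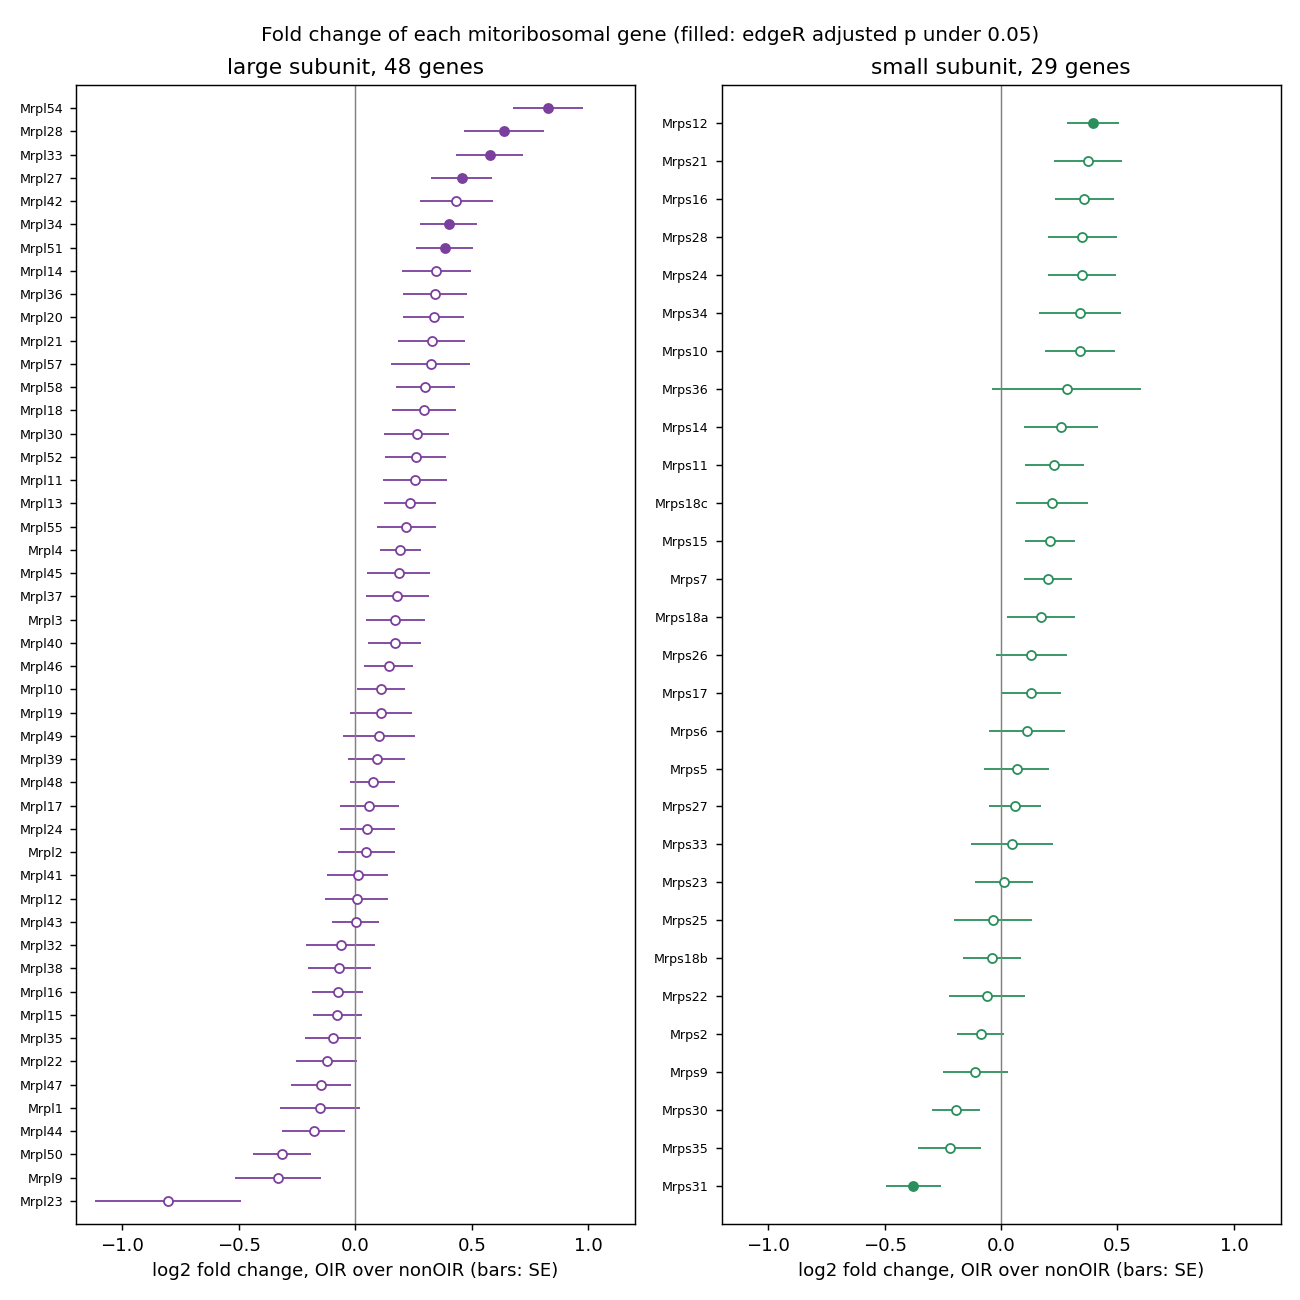
Log2 fold change of OIR over nonOIR with its SE for the 48 large-subunit and 29 small-subunit genes, in order of size; filled points passed the edgeR threshold. Most values lie above 0 in both panels (36 of 48 and 21 of 29), and the lowest, Mrpl23, has the widest error in its panel.

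Members that encode short proteins had the higher fold changes. The 22 genes for proteins of up to 150 residues all had a log2 fold change above 0, with a median of 0.34, and 6 of them (27.3%) rose. The 40 genes for proteins of 151 to 300 residues had a median of 0.11 and 1 rose, Mrpl28. The 15 genes for longer proteins had a median of -0.059, with 7 above 0 and 8 below, and the 1 gene past the threshold was Mrps31, which fell. Both subunits showed this order at the ends, with medians of 0.35 and 0.070 for short and long proteins of the large subunit and of 0.26 and -0.11 for those of the small subunit. The class limits were chosen after the values were seen, so no test is given.

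In every library the summed CPM of the 22 genes for short proteins was set against that of the 15 genes for long ones. In OIR this ratio was 1.90 ± 0.185 (SD, n = 8) and in nonOIR 1.50 ± 0.0830 (SD, n = 8), from 1.67 to 2.17 and from 1.35 to 1.64. The OIR libraries lay above the nonOIR libraries without overlap, in classes chosen after the fold changes of these libraries were seen. The short class summed to 759 ± 127 CPM in OIR and 605 ± 83.5 CPM in nonOIR, and the long class to 398 ± 27.4 CPM and 403 ± 40.23 CPM (SD, n = 8 each). Within lane code 1 the ratio of the ratios was 1.22 and within lane code 2 it was 1.34.

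Over all genes tested the same classes gave medians of 0.15 (777 genes), 0.014 (2270 genes) and -0.027 (8037 genes), with 16.3%, 9.38% and 5.56% higher. As a description across genes, which are not independent, Spearman's rho between protein length and log2 fold change was -0.54 over the 77 members, -0.49 in the large subunit and -0.60 in the small, beside -0.048 over 11084 genes with a protein length. Over the members it was -0.54 with lane code 1 alone and -0.38 with lane code 2 alone. With transcript length in place of protein length it was -0.47 over the members and -0.057 over 12490 genes. Which of the 2 lengths the order follows was not tested. Between the mean CPM of the members and their log2 fold change it was 0.13. By protein length, the nuclear subunits of the respiratory chain and ATP synthase gave -0.56 and the cytosolic ribosomal proteins -0.15. Among genes outside the member list, the median level of short genes relative to long ones also varied between libraries and lane codes. Its ranges overlapped between the groups (-0.25 to 0.48 in OIR, -0.33 to 0.30 in nonOIR, log2 scale centred over libraries). Its mean was higher in OIR, at 0.075 against -0.11 in nonOIR. This also held within lane code 1 (-0.084 against -0.26) and lane code 2 (0.34 against 0.15). On the same measure the members averaged 0.20 in OIR and -0.16 in nonOIR. Their ranges nearly met (-0.012 to 0.40 and -0.26 to -0.015). The part of the shift outside the list in the order among the members was not tested.

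**Figure D4:**
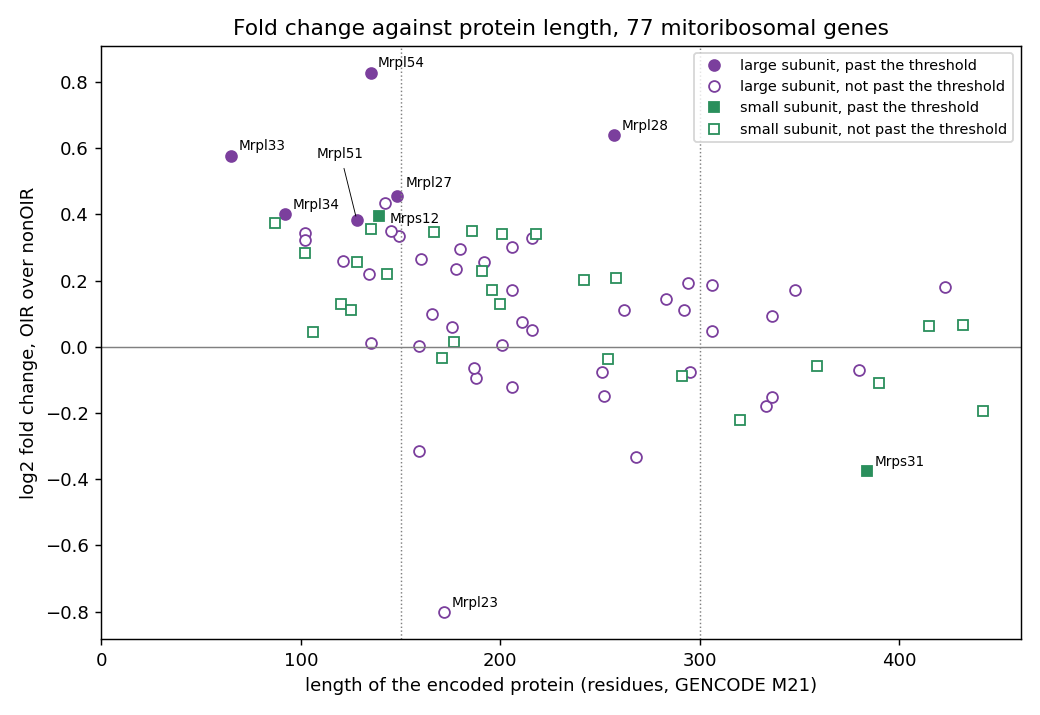
Log2 fold change of OIR over nonOIR against the length of the encoded protein in residues, 1 point per member (purple circles, large subunit; green squares, small subunit; filled, past the edgeR threshold; dotted lines at 150 and 300 residues). All 22 points left of the first dotted line lie above 0, and 8 of the 15 points right of the second lie below 0. The dotted lines were placed after the values were seen.

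Grouped by descent, the 47 proteins shared with bacteria had a median log2 fold change of 0.20. Of these 5 rose (10.6%) and 0 fell, beside 6.39% and 4.56% of all genes tested. At an unadjusted p under 0.05 by edgeR, 17 were higher and 1 lower. The 29 found only in mitochondria had a median of 0.075, with 2 higher (6.90%, Mrpl54 and Mrpl51) and 1 lower (3.45%, Mrps31). Their counts at an unadjusted p under 0.05 by edgeR were 4 higher and 2 lower. By structure these medians were 0.17 over 31 genes and 0.14 over 19 genes in the large subunit, and 0.22 over 16 genes and -0.010 over 10 genes in the small subunit. The mitochondria-specific proteins were also longer, at a median of 206 residues against 191, and the difference between the families was not tested. In these families Mrps18a and Mrps18c were counted as shared with bacteria and Mrps18b as found only in mitochondria, so the counts depend on this assignment.

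The 68 members with a RefSeq promoter sequence were searched for 4 motifs on both strands of the 300-base window. The ETS core CCGGAAG shown above was found in 25 of 68 (36.8%). Counted by gene in the same way, it was in 9.93% of all 27025 genes with a promoter sequence. Among 8849 tested protein-coding genes with such a sequence the share was 21.6%. It was in 14 of 42 large-subunit and 11 of 26 small-subunit promoters. Of the 8 members past the threshold 7 have a sequence, and the core was in 5 of them (Mrpl33, Mrpl27, Mrpl34, Mrpl51 and Mrps12) and not in Mrpl28 or Mrps31. Members with the core had a median log2 fold change of 0.22, with 22 of 25 above 0, and members without it 0.11, with 29 of 43 above 0. They also encoded shorter proteins (median 176 against 201 residues), and the difference was not tested. The NRF1 core GCATGCGC was in 8 of 68 promoters (11.8%, beside 6.46% of tested protein-coding genes), the YY1 core AAGATGGCG also in 8 (11.8%, beside 3.93%) and the E-box CACGTG in 5 (7.35%, beside 12.1%). A match describes these letters in this window and does not show binding.

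None of the tested factors that bind such sites, nor their coactivators, passed the threshold. Gabpa, the DNA-binding subunit of GABP, stood at 55.9 ± 7.60 CPM in OIR and 48.7 ± 6.00 CPM in nonOIR (SD, n = 8 each; edgeR adjusted p = 0.240). Gabpb1, its partner subunit, stood at 55.1 ± 6.05 and 66.5 ± 10.0 CPM (SD, n = 8 each; edgeR adjusted p = 0.109). Of 9 regulators tested 0 passed by edgeR, and 1, Gabpb1, had an unadjusted p under 0.05. The log2 fold changes of the others were -0.13 for Nrf1, 0.23 for Gabpb2, -0.26 for Yy1, -0.042 for Esrra, -0.34 for Ppargc1b, -0.17 for Pprc1 and -0.028 for Myc. Esrra, Pprc1 and Myc changed sign under other settings. Ppargc1a, a coactivator of mitochondrial genes, averaged 0.166 CPM in OIR and 0.239 CPM in nonOIR and was too low to be tested.

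Several members share their start region with another gene. For 33 of 77 a protein-coding gene starts within 1000 bases on the other strand, and exons of 25 overlap those of another gene. Mrpl51 starts 100 bases from Ncapd2, a condensin subunit of dividing cells, which stood at 24.1 ± 12.2 CPM in OIR and 5.89 ± 2.88 CPM in nonOIR (SD, n = 8 each) and rose by 2.03 ± 0.39 on the log2 scale (SE, edgeR adjusted p = 0.00259). Exons of Mrpl27 overlap those of Eme1, a DNA repair nuclease subunit on the other strand, which stood at 2.91 ± 1.19 CPM in OIR and 0.635 ± 0.388 CPM in nonOIR (SD, n = 8 each; log2 fold change 2.19, edgeR adjusted p = 0.00321). Libraries were not stranded, and reads from their shared exons cannot be told apart. Mrpl57 starts 49 bases from Ska3, a kinetochore gene that rose by 2.65 (edgeR adjusted p = 0.00893), while Mrpl57 itself had a log2 fold change of 0.32 (edgeR adjusted p = 0.252). Mrpl2, at 0.048 (edgeR adjusted p = 0.862), starts 207 bases from Klc4, a kinesin light chain, which rose by 0.57 (edgeR adjusted p = 0.00190). Mrps12 shares its start region with Sars2, the mitochondrial seryl-tRNA synthetase, at 0.37 (edgeR adjusted p = 0.332), and Mrpl36 with Ndufs6, a complex I subunit, at 0.48 (edgeR adjusted p = 0.0454).

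Mitoribosomal proteins whose symbols lack the Mrp stem were read from a short list. Of 5 tested 0 passed by edgeR, 2 had an unadjusted p under 0.05, and all 5 had a log2 fold change above 0 (median 0.38). Dap3, a small-subunit GTP-binding protein, stood at 30.8 ± 6.48 CPM in OIR and 23.5 ± 7.27 CPM in nonOIR (SD, n = 8 each; edgeR adjusted p = 0.208). The log2 fold changes of the small-subunit proteins Chchd1, Aurkaip1 and Ptcd3 were 0.44 (edgeR adjusted p = 0.0742), 0.38 (edgeR adjusted p = 0.0977) and 0.20 (edgeR adjusted p = 0.258), and that of Gadd45gip1, of the large subunit, was 0.11 (edgeR adjusted p = 0.732).

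Genes that build and serve the mitoribosome were read from lists, against the 6.39% of all genes that rose and the 4.56% that fell. Of 26 genes of mitoribosome assembly and rRNA modification 0 rose and 1 fell (3.85%), with a median log2 fold change of -0.11 and 19 of 26 below 0. The gene that fell was Mterf4, which works with the methyltransferase Nsun4 on the large subunit, at 16.5 ± 3.03 CPM in OIR and 22.5 ± 3.54 CPM in nonOIR (SD, n = 8 each; log2 fold change -0.44, edgeR adjusted p = 0.0399). This call was lost with library size scaling (edgeR adjusted p = 0.0843) and with no filter on low counts (edgeR adjusted p = 0.113), and it held only without OIR replicate 2 or nonOIR replicates 1, 2 or 5 among the fits with 1 library left out. Nsun4 itself stood at -0.37 (edgeR adjusted p = 0.0971), with all 8 OIR libraries at or below the nonOIR median. Of 15 mitochondrial translation factors 0 passed by edgeR (1 higher and 1 lower at an unadjusted p under 0.05), with a median of 0.090. The elongation factor Gfm1 had 0.45 (edgeR adjusted p = 0.144) and the initiation factor Mtif3 -0.27 (edgeR adjusted p = 0.192). Of 20 genes that charge mitochondrial tRNA 1 fell (5.0%), Gatc, a subunit of the glutamyl-tRNA amidotransferase, by 0.41 (edgeR adjusted p = 0.0318), and the median was -0.084. The Gatc call was lost with no filter on low counts (edgeR adjusted p = 0.0701) and without OIR replicates 4, 5, 6, 7 or 8 or nonOIR replicates 1, 2, 4 or 5.

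Among 19 genes of mitochondrial DNA transcription and RNA processing 1 rose and 1 fell (5.26% each). Pnpt1, the mitochondrial polynucleotide phosphorylase, stood at 35.6 ± 8.39 CPM in OIR and 25.1 ± 3.38 CPM in nonOIR (SD, n = 8 each; log2 fold change 0.51, edgeR adjusted p = 0.0341); the call was lost with no filter (edgeR adjusted p = 0.0513), with limma-voom (adjusted p = 0.0600) and without OIR replicates 2, 7 or 8 or nonOIR replicates 1, 2, 3, 4 or 8. Trmt10c, a subunit of the mitochondrial RNase P, stood at 32.7 ± 5.34 and 47.4 ± 14.5 CPM (SD, n = 8 each; log2 fold change -0.54, edgeR adjusted p = 0.0496). That call was lost with library size scaling (edgeR adjusted p = 0.101), RLE scaling (0.0558), no filter (0.0797) and limma-voom (0.0614), and held only without nonOIR replicates 1, 3 or 4 among the fits with 1 library left out. Within lane code 1 the calls of Mterf4, Gatc, Trmt10c and Hspa9 were lost, and within lane code 2 those of Mterf4, Gatc and Pnpt1. The calls of Mterf4 and Pnpt1 were lost with the replicate number as a block, and those of Mterf4, Pnpt1 and Trmt10c without OIR replicate 1 and nonOIR replicate 8 together. Of 25 genes of mitochondrial import, carriers and chaperones 1 rose (4.0%), Hspa9, the matrix chaperone that pulls imported proteins in, by 0.38 (edgeR adjusted p = 0.0121), and 24 of 25 had a log2 fold change above 0 (median 0.17). All 37 genes encoded in mitochondrial DNA were at 0 counts in every library, so neither the mitoribosome's RNA nor its messages can be compared.

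Nuclear subunits of the respiratory chain and ATP synthase, part of which assemble with the products of the mitoribosome, were read beside it. Of 81 tested 31 rose (38.3%) and 0 fell (0 also at an unadjusted p under 0.05), with a median log2 fold change of 0.38 and 55 higher at an unadjusted p under 0.05. Examples were Uqcr10 of complex III, at 90.9 ± 19.5 CPM in OIR and 57.7 ± 9.18 CPM in nonOIR (SD, n = 8 each; edgeR adjusted p = 0.00334), and Cox5b of complex IV, at 30.0 ± 7.13 and 19.4 ± 2.67 CPM (SD, n = 8 each; edgeR adjusted p = 0.00778). The Cox5b call was lost within lane code 1 (edgeR adjusted p = 0.0573), while the Uqcr10 call was lost under no alternative. Within the class of up to 150 residues, the medians were 0.48 over 46 of these subunits and 0.34 over the 22 mitoribosomal genes. Above 300 residues they were 0.20 over 12 and -0.059 over 15. Cytosolic ribosomal proteins gave 3 higher and 0 lower of 80, with a median of 0.20, and their 3 classes of length had medians of 0.22, 0.18 and 0.23. Their counts are uncertain because many have processed pseudogenes. The difference between the lists was not tested, and all lists are read from the same libraries.

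**Figure D5:**
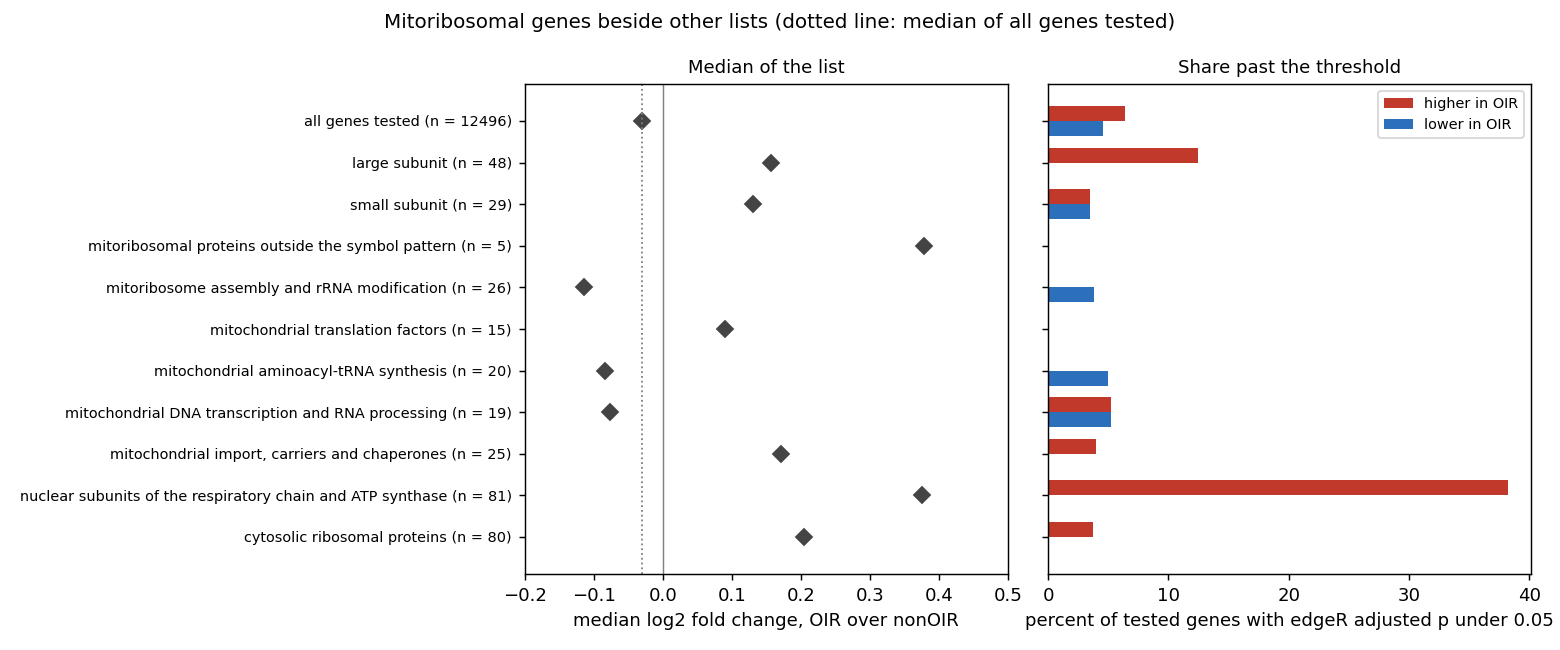
Median log2 fold change of OIR over nonOIR (left) and the percent of tested genes past the edgeR threshold in each direction (right) for the 2 subunits and related lists. The large subunit (0.16, 12.5% higher) and the small subunit (0.13, 3.45% higher) lie between all genes (-0.031, 6.39% higher) and the respiratory chain subunits (0.38, 38.3% higher) in their medians.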

How the data were processed

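Whole-number gene counts deposited by the authors, per the file headers, were used for every test. The authors' deposited table also holds their normalized signal per library, log2 fold changes, a Wald score (fold change over its error) and p-values with adjusted p-values, used only to compare calls. Builds and tools named by the submitters' processing notes, with no roles, are mm10, STAR 2.6.0b-1, featureCounts 1.6.2 and FastQC 0.72, plus DESeq2 at 2.11.40.2, a form of number that wrappers use; which annotation was counted is not given there. Per the labels' protocols, a SMARTer and Nextera XT workflow, which does not mark strand and has no molecular identifiers, started from 750 pg of RNA with 12 cycles of amplification and gave single reads of 50 bases.

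Groups, replicate numbers and the lane code came from the labels. After filterByExpr and TMM scaling, counts were tested two-sided with edgeR 4.0.16 in R 4.3.3 (quasi-likelihood, robust), adjusted by Benjamini-Hochberg over 12496 genes at 0.05; the biological coefficient of variation was 40.3%. Every edgeR p-value quoted is from this test, except where the text names another edgeR fit, which was adjusted over its own genes. The fit was tested on simulated data. CPM are TMM-scaled except in the rule for members. Alternatives covered scaling, filters, lane, replicate number, DESeq2 1.42.0, limma-voom (limma 3.58.1), structure-based subunits and the omission of each library. Gene positions, transcript and protein lengths are from GENCODE M21, on the same build (77 of 77 members found). Of 123 genes in the related lists 122 were in the table.

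Members, lists and rules were chosen with earlier results of these data known. Named members were all that passed, the 5 highest and 5 lowest fold changes and the 5 highest levels per kilobase of each subunit, and those near the limit of 1 CPM; related lists gave up to 4 genes of lowest p, and all regulators. Families of descent, length classes and start-region neighbours were added after values were seen. No same-numbered OIR and nonOIR libraries deviated together (correlations from -0.0411 to 0.0952 over 2000 genes).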

Additional observations from a re-analysis of the deposited data

Results flagged for a closer look

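In 6 of 68 groups of 8 values checked, 1 library lay apart from the other 7 (Dixon's test), and chance flags about 1 in 20 groups. Mrpl50 stood at 49.5 CPM in OIR replicate 2, above the other OIR libraries, and its difference passed the edgeR threshold without that library, as given above. Mrps15 stood at 83.7 CPM in OIR replicate 6. Among nonOIR libraries, Mrpl9 stood at 32.1 CPM in replicate 8, Mrps2 at 60.4 CPM in replicate 3 and Mrps9 at 28.3 CPM in replicate 5. The ratio of large-subunit to small-subunit CPM was 2.20 in nonOIR replicate 7, the highest of its group and inside the OIR range. The 6 values fell in 6 different libraries.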

How the results depend on the processing

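The median log2 fold changes stayed above 0 under every alternative run, fits with libraries left out included. They ran from 0.12 to 0.27 in the large subunit and from 0.098 to 0.25 in the small. Both highest values were those of lane code 2. Each shift from the main test was smaller than the SD of the per-library medians (0.136 large subunit, 0.146 small). The counts of members past the threshold moved, and the cause was not tested. Large-subunit genes higher in OIR numbered 6, but 3 with upper-quartile scaling, 3 with no filter on low counts and 1 with lane code 1 alone. Small-subunit genes higher numbered 1, but 0 with no filter and with either lane code alone, 5 with the lane covariate and 2 with DESeq2. Small-subunit genes lower numbered 1, but 0 with library size or RLE scaling, no filter, and either lane code alone. With the replicate number as a block, 3 small-subunit genes were higher and 0 lower; the large-subunit count was 8. The labels give no pairing behind the numbers. Leaving out each library gave 3 to 7 large-subunit genes higher and 0 to 1 lower, and 0 to 2 small-subunit genes higher and 0 to 1 lower. Without OIR replicate 1 and nonOIR replicate 8 together, chosen after seeing the data, 5 large-subunit genes were higher and 1 lower (Mrpl23), and 3 small-subunit genes were higher and 0 lower. Over all genes 798 were higher and 570 lower; the counts were 364 lower with library size scaling, 343 lower with no filter, 1210 and 949 with the lane covariate, 276 and 141 in lane code 1, 1260 higher in lane code 2 and 885 lower with DESeq2, and leaving out each library gave 582 to 908 higher and 353 to 648 lower.

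Values that changed sign did not pass the threshold there. Esrra was 0.028 with library size scaling, 0.00032 in lane code 1 and 0.015 without the pair of libraries, with a range of -0.12 to 0.025 over fits with libraries left out. Myc was 0.041 with library size scaling and 0.15 in lane code 2 (-0.17 to 0.054), and Pprc1 0.22 in lane code 2 and 0.0050 with limma-voom (-0.34 to 0.0079). Mrps9 was 0.0025 in lane code 2 and Mrpl1 0.0061 without the pair (-0.23 to 0.0061). Depth limits Mrps36, Mrpl23 and Mrps34 most, and the SEs of their log2 fold changes were 0.32, 0.31 and 0.18. For a single library no interval can be given, since reads were amplified without molecular identifiers.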
